A study of Mus musculus with 6 samples.

Results

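The genes described here encode 9 cell surface proteins, most of them carriers of blood group antigens on human red cells. They are the Rh-associated glycoprotein Rhag, the Rh protein Rhd, the Kell protein Kel and its partner Xk, and the adhesion molecules Icam4 and Bcam. The others are glycophorin C (Gypc), the erythroid membrane protein Ermap and the self marker Cd47. All 9 genes were chosen by symbol. Every probe set (a group of short probes against 1 transcript) was taken whose platform annotation names a single gene with such a symbol. This gave 14 probe sets of 45037 tested, and 9 of 18193 genes; 7 genes had 1 probe set, Xk had 2 and Cd47 had 5. All 14 were fitted, without a filter on low values.

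The study compared knockout (KO) mice lacking the miR-144/451 locus with wild-type (WT) mice, 3 mice and 3 arrays per genotype. KO arrays carry the numbers 493, 548 and 551 in their titles and WT arrays 497, 504 and 550. In both genotypes the cells were freshly isolated bone marrow erythroblasts positive for Ter119 and for CD71, the transferrin receptor, with high forward scatter, which selects large cells; total RNA was hybridised to Affymetrix Mouse Genome 430 2.0 arrays. The sources used here give no strain, age or sex and do not state how far the deletion extends, and the labels do not say whether mice of the 2 genotypes shared a litter.

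Red cells carry the Rh proteins in a large membrane complex with band 3 (Slc4a1), CD47 and ankyrin, and a second junction ties glycophorin C to the spectrin skeleton through protein 4.1. Kell is a surface endopeptidase bound to XK by a disulphide bond. ICAM4 and BCAM bind integrins and laminin, and CD47 signals to the receptor SIRPA on macrophages, which spares the cell from being engulfed. Most of these genes come on during erythroid maturation, when GATA1 and KLF1 drive the red cell programme. The microRNAs that the KO mice lack accumulate in the same cells. Their mature forms are shown because the KO mice lack the locus they come from. They are as RefSeq gives them for mouse assembly GRCm38.p6 on the plus strand of chromosome 11, with the seed (bases 2 to 8) in capitals. The 3 seeds differ from each other. None of the 9 genes lies on chromosome 11: RefSeq places Rhd and Ermap on chromosome 4, Kel on 6, Bcam on 7, Icam4 on 9, Cd47 on 16, Rhag on 17, Gypc on 18 and Xk on X.
mmu-miR-144-5p: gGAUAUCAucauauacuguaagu
mmu-miR-144-3p: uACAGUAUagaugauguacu
mmu-miR-451a: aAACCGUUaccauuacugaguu

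No transcript of these surface proteins passed the test for a difference between erythroblasts with and without miR-144/451. By limma 0 of the 14 probe sets were called at an adjusted p under 0.05, against 0.355% of all probe sets; the lowest adjusted p among the 14 was 0.157, for Icam4. Differences, given throughout as log2 KO minus WT, ran from -0.38 (Icam4) to 0.12 (a Cd47 probe set). For 12 of the 14 probe sets the 95% interval lay within a 1.5-fold change either way, the exceptions being Icam4 and 1 probe set of Xk. At an unadjusted p under 0.05 those 2 were lower in KO, where 12.2% of all probe sets were. A second limma fit, in which the variance prior follows intensity and resists outliers (the trend fit), called Icam4 alone (3.53% of all probe sets called). Per gene the median difference over the 9 genes was -0.10, against -0.04 over all genes. Erythroid markers were bright on every array. Tfrc, which encodes CD71, averaged a log2 intensity of 12.94 ± 0.01 in KO and 12.98 ± 0.02 in WT (SD, n = 3 each). Gata1 averaged 12.45 ± 0.04 in KO and 12.44 ± 0.05 in WT, and Klf1 12.45 ± 0.05 in KO and 12.55 ± 0.14 in WT. These levels do not measure purity. The neutrophil genes S100a8 (13.18 in KO, 13.27 in WT) and S100a9 (13.38 and 13.45) were brighter than Tfrc. Other measured neutrophil markers were dimmer than Tfrc.

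**Figure D1:**
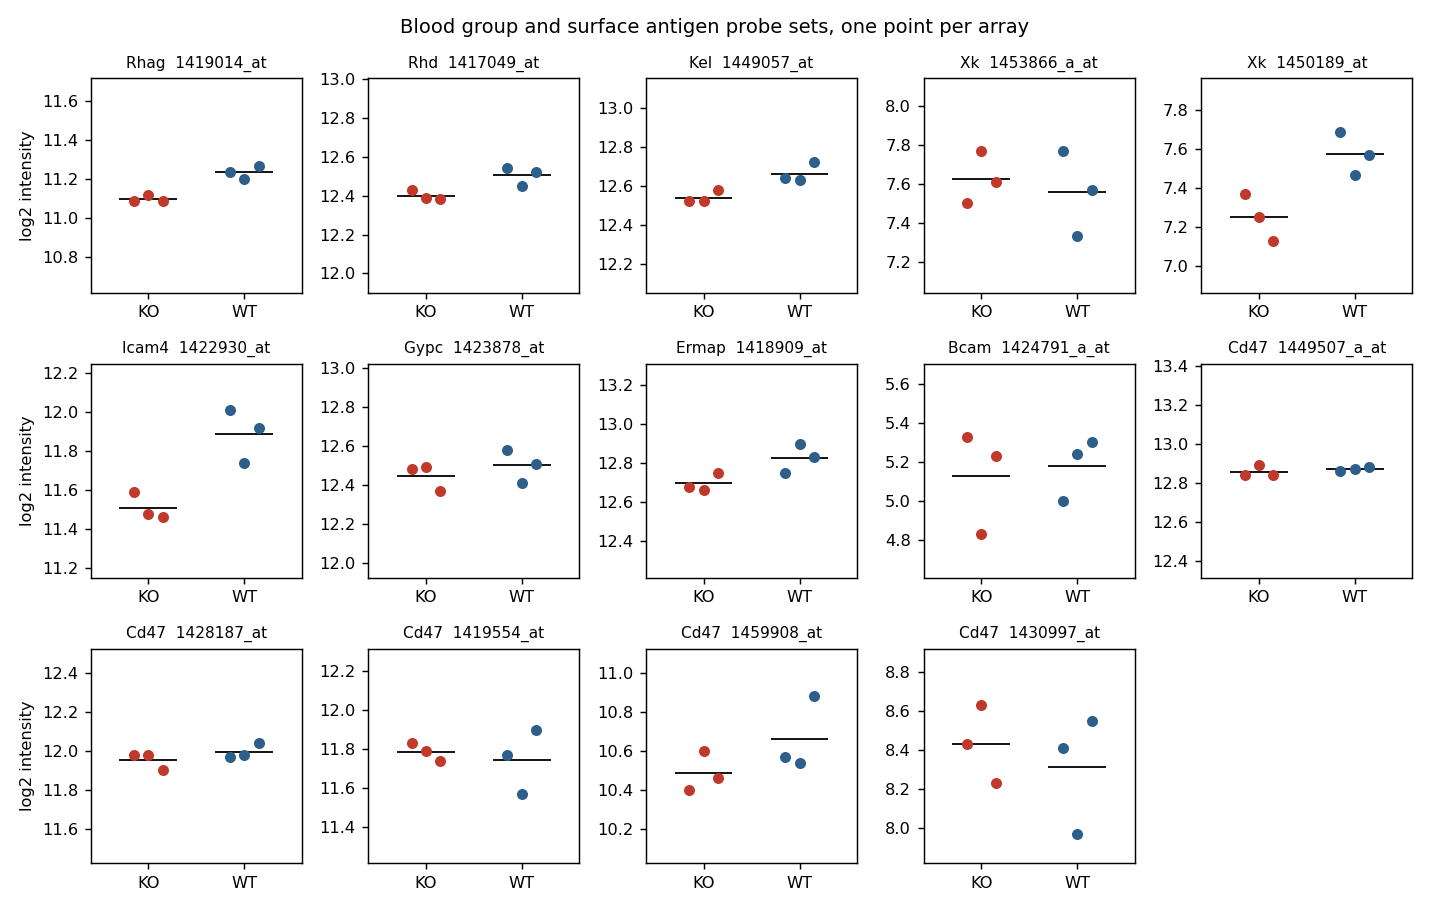
Log2 intensity (vertical axis, 1.1 log2 units in every panel) of each of the 14 probe sets, with KO arrays in red on the left and WT arrays in blue on the right of each panel; each point is 1 array and the bar is the group mean. The KO points of Icam4 (11.46 to 11.59) lie below its WT points (11.74 to 12.01), while the ranges of KO and WT points overlap in every panel of Cd47, Gypc and Bcam.

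Icam4, an immunoglobulin-family adhesion molecule that carries the Landsteiner-Wiener blood group and binds integrins on macrophages and other blood cells, had the largest difference of the 14 probe sets. Its log2 intensity was 11.59, 11.48 and 11.46 in KO 493, 548 and 551, against 12.01, 11.74 and 11.92 in WT 497, 504 and 550. All KO values lay below all WT values. The gap between the nearest pair was wider than the range within KO but narrower than the range within WT. The difference was -0.38 ± 0.11 (SE, n = 3 per group), a fold of 0.768 with a 95% interval of 0.637 to 0.927. Limma with adjustment over all probe sets did not call it (adjusted p = 0.157), and over the other planned settings the adjusted p ran from 0.029, with the intensity trend, to 0.247, with a block for low against high title numbers; without 1 array it ran from 0.145 to 0.311. Leaving out an array moved the difference between -0.46 and -0.32.

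The transcripts of the Rh genes differed by less than 0.2 log2 units. Rhag, an ammonia channel of the Rh complex, without which the Rh proteins do not reach the surface of human red cells, read 11.09, 11.12 and 11.09 in KO 493, 548 and 551, against 11.24, 11.20 and 11.27 in WT 497, 504 and 550. The arrays of a genotype were close together and the genotypes did not overlap. The difference was -0.14 ± 0.09 (fold 0.91, 95% interval 0.781 to 1.06; limma adjusted p = 0.455). Rhd, the protein that carries the D antigen in people and the Rh protein of the mouse, read 12.43, 12.39 and 12.38 in KO 493, 548 and 551, against 12.54, 12.45 and 12.52 in WT 497, 504 and 550, again without overlap. Its difference was -0.10 ± 0.09 (fold 0.931, 95% interval 0.797 to 1.09; limma adjusted p = 0.582). For both genes limma's shared variance gave a standard error well above what the arrays' own spread would give: the SDs of Rhag were 0.017 in KO and 0.035 in WT. With the intensity trend, which lets bright probe sets have a smaller variance, the adjusted p was 0.205 for Rhag and 0.195 for Rhd.

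Kel, the endopeptidase that carries the Kell antigens, read 12.52, 12.52 and 12.58 in KO 493, 548 and 551, against 12.64, 12.63 and 12.72 in WT 497, 504 and 550. The KO arrays lay just below the WT arrays, with a difference of -0.12 ± 0.09 (fold 0.918, 95% interval 0.785 to 1.07; limma adjusted p = 0.51). Its partner Xk, a membrane protein that gives the Kx antigen and is related to lipid scramblases, was read by probe sets that did not go the same way. Probe set 1450189_at read 7.37, 7.25 and 7.13 in KO 493, 548 and 551, against 7.69, 7.47 and 7.57 in WT 497, 504 and 550, with no overlap and a difference of -0.33 ± 0.12 (fold 0.797, 95% interval 0.659 to 0.965; limma adjusted p = 0.2). Probe set 1453866_a_at read 7.50, 7.77 and 7.61 in the same KO arrays, against 7.77, 7.33 and 7.57 in the WT arrays, which overlap fully, with a difference of 0.07 ± 0.15 (limma adjusted p = 0.829). Within an array the first minus the second was -0.13, -0.52 and -0.48 in KO and -0.08, 0.14 and 0 in WT. This contrast was looked at because the probe sets differed in sign, and was not tested. The mean of both probe sets differed by -0.13 (limma adjusted p = 0.552).

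**Figure D2:**
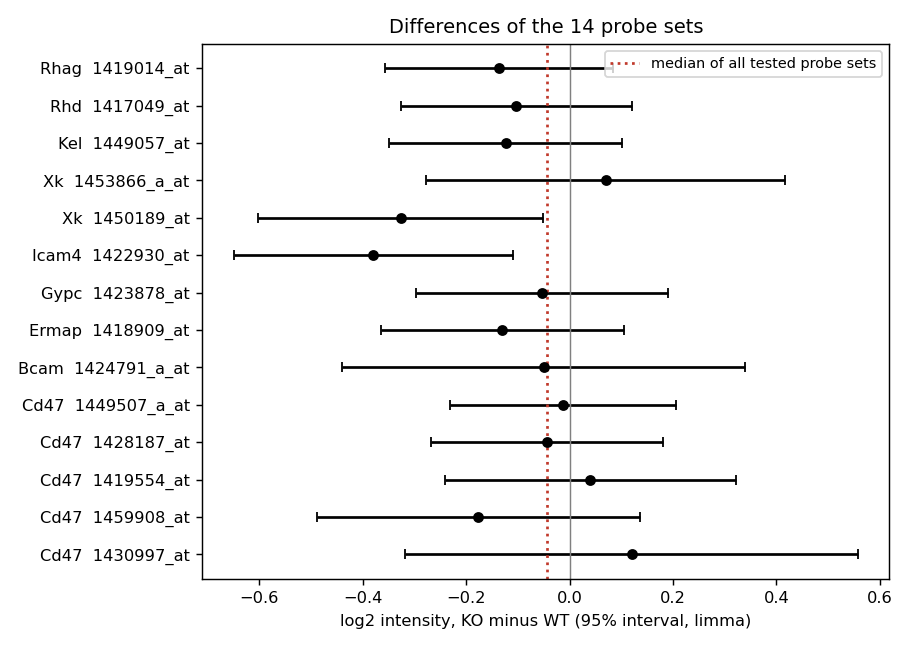
Difference in log2 intensity, KO minus WT (horizontal axis), of each of the 14 probe sets (vertical axis), with limma's 95% interval from 3 arrays per genotype; the dotted line is the median of all tested probe sets, -0.04. The intervals of Icam4 (-0.65 to -0.11) and Xk 1450189_at (-0.60 to -0.05) leave out 0 and the other 12 include it.

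Gypc, the glycophorin that anchors the skeleton through protein 4.1, read 12.48, 12.49 and 12.37 in KO 493, 548 and 551, against 12.58, 12.41 and 12.51 in WT 497, 504 and 550. The groups overlapped, and the difference was -0.05 ± 0.10 (fold 0.964, 95% interval 0.814 to 1.14; limma adjusted p = 0.813). Ermap, an erythroid immunoglobulin-family protein that carries the Scianna blood group, read 12.68, 12.66 and 12.75 in KO, against 12.75, 12.90 and 12.83 in WT, in the same array order. The highest KO array equalled the lowest WT array, and the difference was -0.13 ± 0.10 (fold 0.914, 95% interval 0.776 to 1.08; limma adjusted p = 0.506). Bcam, the laminin receptor that carries the Lutheran blood group, read 5.33, 4.83 and 5.23 in KO, against 5.0, 5.24 and 5.30 in WT. These values lay under the array medians, 5.62 to 5.68 in KO and 5.73 to 5.78 in WT, and without detection calls a Bcam transcript cannot be told apart from background signal. Its difference of -0.05 ± 0.16 turned to 0.04 under renewed quantile normalization and to 0.03 under cyclic loess.

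Cd47 had 5 probe sets, and in none of them did KO separate from WT. The brightest, 1449507_a_at, read 12.84, 12.89 and 12.84 in KO 493, 548 and 551, against 12.86, 12.87 and 12.88 in WT 497, 504 and 550, a difference of -0.01 ± 0.09 (limma adjusted p = 0.953). Its 95% interval, a fold of 0.852 to 1.15, lies within a 1.5-fold change either way. Of the other 4 probe sets, 1428187_at was at -0.04 ± 0.09, 1419554_at at 0.04 ± 0.12, 1459908_at at -0.18 ± 0.13 and 1430997_at at 0.12 ± 0.18. The widest spread was in 1430997_at, which read 8.43, 8.63 and 8.23 in KO, against 8.41, 7.97 and 8.55 in WT. Without WT 504 the differences of 1419554_at and 1430997_at became -0.05 each, and the mean of all 5 probe sets differed by -0.01.

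Taken over the 9 genes, most differences were small and below 0. Of the 14 probe sets 11 had a difference below 0, where 56.8% of all probe sets did. In 5 of them, those of Icam4, Rhag, Rhd, Kel and Xk 1450189_at, the KO arrays lay wholly below the WT arrays, where 15.3% of all probe sets did, and in 0 wholly above (10.7% of all). The 9 member probe sets with a mean log2 intensity of at least 11 were also set beside all 2863 such probe sets, of which 20.2% had KO wholly below WT and 17.4% wholly above. Of these 9, 4 lay wholly below WT and 0 wholly above, and their median difference was -0.10, against -0.01 for bright probe sets as a whole. These 9 probe sets are not the 9 genes, since Cd47 gave 1449507_a_at, 1428187_at and 1419554_at, and Xk and Bcam gave none. With the intensity trend 6 of the 14 were lower at an unadjusted p under 0.05 (13% of all probe sets); the lowest adjusted p of a member other than Icam4 in that fit was 0.131, for Kel. No test was made over the members together. In bulk RNA a smaller share of maturing cells and less RNA per cell cannot be told apart.

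The arrays of a genotype did not contribute evenly. Among WT arrays, WT 504 had the lowest value, alone or tied, in 10 of the 14 probe sets and WT 550 in 0, while Ermap ran the other way with WT 504 highest. Among KO arrays, KO 551 was lowest, alone or tied, in 9 and KO 548 in 3. Averaged over the 9 genes after centring each gene on its 6-array mean, the log2 profile was -0.03, -0.07 and -0.05 in KO 493, 548 and 551, against 0.07, 0.00 and 0.08 in WT 497, 504 and 550. Every KO array lay below every WT array on this average, but the gap between KO 493 and WT 504 was smaller than the range within WT. The average gives Bcam, which cannot be told apart from background, the same weight as the bright genes. Its value of 4.83 in KO 548, against 5.33 and 5.23 in KO 493 and 551, lowers the average of KO 548. The order of the KO arrays therefore depends in part on Bcam. The ranking of similar profiles below uses the same average.

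**Figure D3:**
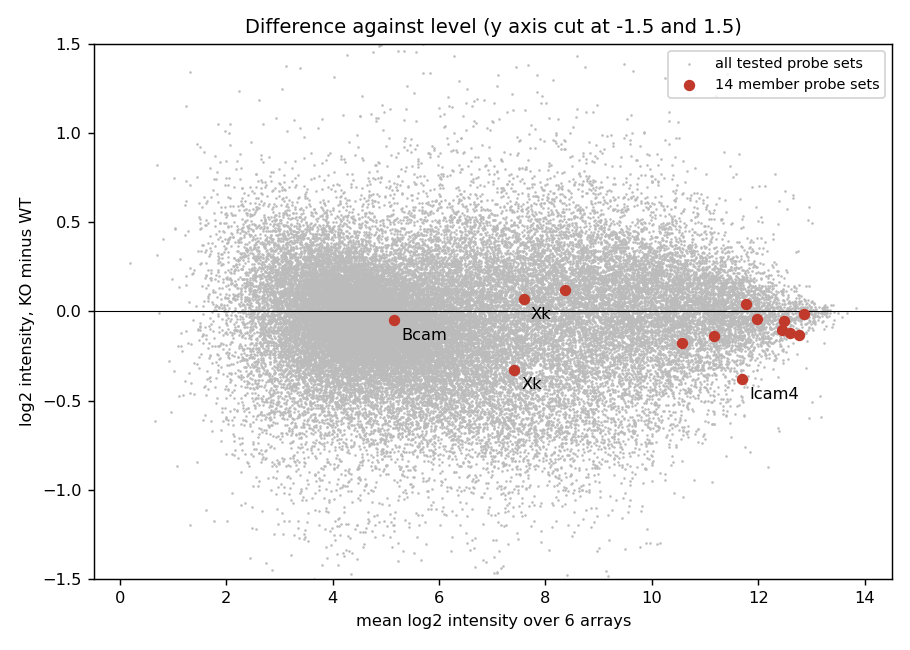
Difference in log2 intensity, KO minus WT (vertical axis, cut at -1.5 and 1.5), against the mean log2 intensity over the 6 arrays (horizontal axis), with every tested probe set in grey and the 14 member probe sets in red. Of the 2863 probe sets with a mean of at least 11, 3.14% lie at or below the -0.38 of Icam4, and the other 8 member probe sets at that level lie between -0.14 and 0.04.

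Most membrane partners of these proteins had differences below 0. Of 10 measured genes of the band 3 complex and spectrin skeleton, 9 were below 0 (56.2% of all genes) and 0 were called by limma (0.385% of all genes called), with a median of -0.21; 4 were lower at an unadjusted p under 0.05 (12.7% of all genes), and 2 of them in the trend fit after adjustment (2.04% of all genes, KO lower). Mpp1, the p55 scaffold that joins glycophorin C to protein 4.1, read 11.39, 11.35 and 11.37 in KO 493, 548 and 551, against 11.70, 11.71 and 11.71 in WT 497, 504 and 550. These groups were far apart relative to their spread, and the difference was -0.34 ± 0.09 (limma adjusted p = 0.138, with the trend 0.0101). Dmtn, the actin-bundling protein dematin, was at -0.37 ± 0.11 (limma adjusted p = 0.163, with the trend 0.031). Glycophorin C was at -0.05 and its scaffold Mpp1 at -0.34 on the same arrays.

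Other blood group genes, 29 measured, lay on both sides of 0, with 15 lower (56.2% of all genes), 14 higher and a median of -0.06. Limma called 0 of them (0.385% of all genes called). At an unadjusted p under 0.05, 5 were lower and 3 higher, where 12.7% of all genes were lower and 8.34% higher. The trend fit called 1, Cd55, lower (2.04% of all genes). Cd55, the complement regulator that carries the Cromer blood group, read 8.51, 8.76 and 8.46 in KO 493, 548 and 551, against 9.60, 9.42 and 9.24 in WT 497, 504 and 550. The difference of -0.84 ± 0.14 (limma adjusted p = 0.0682, with the trend 0.0141) was the largest in this list, with no overlap. A4galt, the galactosyltransferase that makes the P1PK antigens, was at 0.60 ± 0.14 (limma adjusted p = 0.117), with signals under the array medians in both genotypes, at 5.39 in KO and 4.80 in WT.

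Of 17 measured ligands and binding partners 13 were below 0, against 56.2% of all genes, with a median of -0.17, against -0.04. Limma called 0 of the 17 (0.385% of all genes called). At an unadjusted p under 0.05, 4 were lower (12.7% of all genes), and with the trend 2 were called, both lower (2.04% of all genes). Sirpa, the receptor that reads CD47, read 9.75, 9.62 and 9.55 in KO 493, 548 and 551, against 10.46, 10.20 and 10.24 in WT 497, 504 and 550. Its difference was -0.66 ± 0.12 (limma adjusted p = 0.0757, with the trend 0.0124), beside -0.01 for the brightest Cd47 probe set. Itgav, the alpha-V integrin chain that binds ICAM4, was at -0.57 ± 0.13 (limma adjusted p = 0.107, with the trend 0.0294). Sirpa and Itgav are also expressed by macrophages and other myeloid cells. Of 46 measured marker genes of macrophages, neutrophils, B cells, T and NK cells, megakaryocytes, eosinophils, basophils and mast cells, 41 were below 0 (56.2% of all genes), with a median of -0.38 and summed linear intensities of 60360 to 66464 in KO and 73079 to 82184 in WT. Of the 46 genes 0 were called by limma, and 5 had a mean log2 intensity under 6. Neutrophil genes gave the largest part of the sums, 38479 to 43880 in KO and 46577 to 49239 in WT. Of 6 megakaryocyte genes 3 were below 0 and 3 above, with overlapping sums of 5784 to 6941 in KO and 6028 to 6364 in WT. Itga2b, which lay above 0, is counted both here and among the ligands and binding partners. For macrophages alone 11 of 12 were below 0, with sums of 7979 to 9003 in KO and 9691 to 11924 in WT; Marco and Siglec1 were under 6. The part of these cells in the values of Sirpa, Itgav and Icam4 was not tested.

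The stage lists and the regulators had medians below 0, as did all genes together (-0.04). Of all genes 56.2% were below 0 and 0.385% were called by limma. At an unadjusted p under 0.05, 12.7% of all genes were lower and 8.34% higher, and the trend fit called 2.04% lower. All 15 measured late erythroblast genes were below 0, with a median of -0.18. Of them 0 were called by limma, 5 were lower at an unadjusted p under 0.05 and 4 were called lower by the trend fit. The lists are not separate: Slc4a1 and Epb42 are also among the band 3 and skeleton partners. Epb42 was lower at an unadjusted p under 0.05 and is counted in both lists. Ube2l6, a ubiquitin-like conjugating enzyme, was at -0.69 ± 0.11 (limma adjusted p = 0.0625) and Bcl2l1, the survival factor BCL-XL, at -0.33 ± 0.11 (limma adjusted p = 0.186). Of 12 early progenitor genes 11 were below 0, with 0 called by limma, 6 lower and 1 higher at an unadjusted p under 0.05, 3 called lower by the trend fit and a median of -0.40; Erg was at -0.65 ± 0.12 and Cd34 at -0.83 ± 0.17 (limma adjusted p = 0.0792 and 0.0954). Of 12 erythroid regulators 8 were below 0, with 0 called by limma, 2 lower at an unadjusted p under 0.05, 1 called lower by the trend fit and a median of -0.06. E2f4 and E2f2, cell cycle factors needed for red cell maturation, were at -0.35 ± 0.11 and -0.37 ± 0.12 (limma adjusted p = 0.174 and 0.178). Gata1 was at 0.01 ± 0.09 and Klf1 at -0.10 ± 0.11. The actin control probe sets read 1.82 to 1.86 log2 units higher at the 3' than at the 5' end in KO and 1.65 to 1.67 in WT, and those of Gapdh 1.0 to 1.05 in KO and 1.03 to 1.09 in WT; the part of this in the members' values was not tested.

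**Figure D4:**
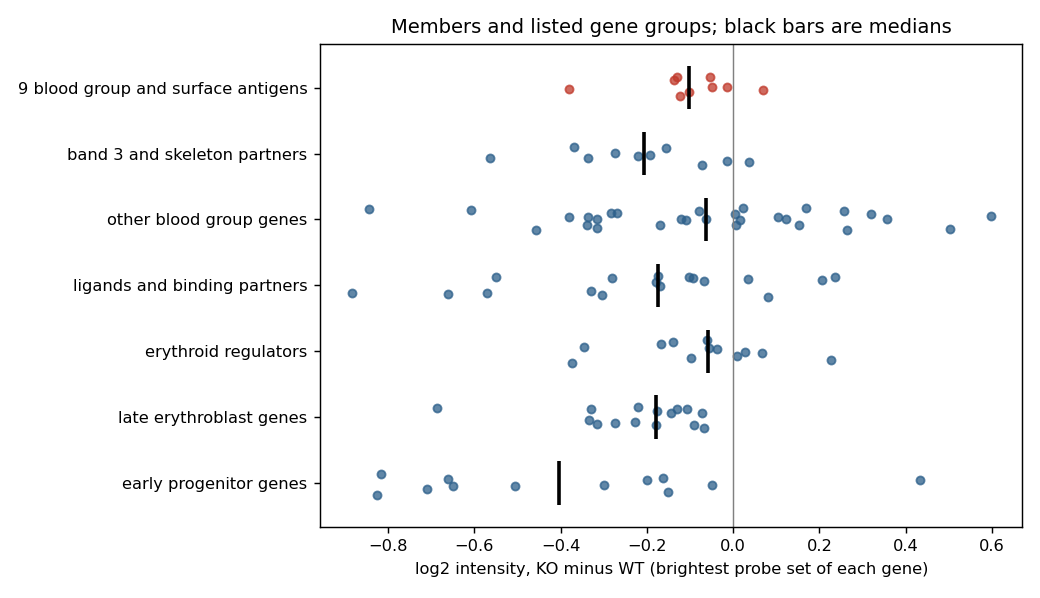
Difference in log2 intensity, KO minus WT (horizontal axis), of each gene's brightest probe set, for the 9 members (red) and 6 gene lists (blue); each point is a gene and the black bar is the group's median. The median of the members, -0.10, lies between those of the other blood group genes, -0.06, and the band 3 and skeleton partners, -0.21. Slc4a1 and Epb42 are drawn both with the band 3 and skeleton partners and with the late erythroblast genes.

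The genes whose profiles over the 6 arrays were most like the members' mean profile, among 6972 other genes with a mean log2 intensity of at least 8, were Ncapg, a condensin subunit (Pearson r 0.994), Vdr, the vitamin D receptor (0.991), Ube2s, a ubiquitin-conjugating enzyme of mitosis (0.99), Gucd1 (0.989) and Pofut1, a protein O-fucosyltransferase (0.988). These arrays share genotype and normalization, and with only 6 of them 452 genes had r over 0.9.

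Promoter letters were compared because GATA1 and KLF1 are the known activators of erythroid genes. RefSeq windows of 250 bases before to 50 after the start were found for 8 of the 9 genes. The letters GATAA, the core read by GATA factors, searched on both strands, stood in 5 of 8 member windows (Rhag, Rhd, Kel, Icam4 and Ermap) and in 25.8% of 27025 gene promoters of the same 300 bases. In the last 150 bases the same 5 held it, against 12.1% of promoters. In all 5 genes the match began 18 to 67 bases before the start. The letters CCNCNCCC, a form of the box read by KLF factors, searched on both strands, stood in 4 of 8 (Rhd, Icam4, Bcam and Xk), against 49.1% of promoters, and in the last 150 bases of the same 4, against 36.6%. The windows below, from 100 bases before to 50 after the start, are those of the members that hold GATAA, with Cd47, the member whose window holds neither; capitals mark GATAA or its reverse TTATC, and CCNCNCCC or its reverse GGGNGNGG. The build is GRCm38.p6, and each is written 5' to 3' on the gene's strand.
Icam4, chr9:21029332-21029481, plus strand: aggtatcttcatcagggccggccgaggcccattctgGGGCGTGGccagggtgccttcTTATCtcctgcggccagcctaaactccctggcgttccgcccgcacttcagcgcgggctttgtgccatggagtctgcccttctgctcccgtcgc
Rhag, chr17:40811049-40811198, plus strand: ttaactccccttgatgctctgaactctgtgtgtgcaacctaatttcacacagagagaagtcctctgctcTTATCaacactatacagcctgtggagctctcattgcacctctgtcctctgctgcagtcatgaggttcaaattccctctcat
Rhd, chr4:134864436-134864585, plus strand: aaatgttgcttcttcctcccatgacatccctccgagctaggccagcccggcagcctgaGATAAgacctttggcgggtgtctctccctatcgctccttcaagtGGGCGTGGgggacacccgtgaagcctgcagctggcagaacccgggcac
Kel, chr6:41704276-41704425, minus strand: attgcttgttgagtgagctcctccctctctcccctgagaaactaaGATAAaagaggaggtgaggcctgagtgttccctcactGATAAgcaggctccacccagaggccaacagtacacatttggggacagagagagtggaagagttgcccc
Ermap, chr4:119189946-119190095, minus strand: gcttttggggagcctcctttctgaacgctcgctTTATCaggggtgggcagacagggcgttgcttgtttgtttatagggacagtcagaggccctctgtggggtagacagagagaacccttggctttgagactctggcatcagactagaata
Cd47, chr16:49855554-49855703, plus strand: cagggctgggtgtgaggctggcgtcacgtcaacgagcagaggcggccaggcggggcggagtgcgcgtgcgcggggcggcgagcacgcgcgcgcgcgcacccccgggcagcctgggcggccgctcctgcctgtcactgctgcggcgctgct

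In Icam4 and in Rhd both motifs stand within the printed window. TTATC begins 43 bases before the start in Icam4, and GATAA 42 bases before it in Rhd. In Kel GATAA occurs 2 times, 55 and 18 bases before the start. A match of letters is a description of the sequence; binding was not measured here, and the letters were not tested against the differences.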

How the data were processed

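The values deposited by the authors were probe set intensities on a linear scale, made by RMA, a robust average over the probes of each set, as recorded in the submitters' processing notes; the software, version and background step are not given in the sources used here. RMA fits all arrays together and pulls them toward 1 distribution, so a shift shared by most transcripts would be partly removed. All 270606 deposited intensity values matched a power of 2 with a 2-decimal exponent to within 0.0051 intensity units, and were returned to log2. Of 45101 probe sets 64 controls were left out. Names came from GEO's platform annotation (34945 tested probe sets with 1 gene, 932 with several, which named none, and 9160 without), updated through gene identifiers to RefSeq of GRCm38.p6, where 99.1% of genes were found. A gene is represented by its brightest probe set.

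Differences were tested in limma (version 3.58.1, R 4.3.3) by lmFit followed by eBayes without covariates, adjusted by Benjamini-Hochberg over 45037 probe sets and a threshold of 0.05; SEs are limma's and SDs are over 3 arrays. The number of arrays limits the precision. The fit was tested on simulated data with shifts larger than any member difference. That test says nothing about finding differences of the members' size. Groups came from sample titles; nothing in the labels says whether mice were bred or handled together, so p-values measure the spread between these arrays. Named genes are the 9 members and, in each list, the called genes or else the 2 with the smallest p; the 5 genes with the most similar profile were chosen by Pearson r. The members and lists were chosen with earlier results of these data known. Alternatives were a level filter, renewed quantile and cyclic loess normalization, an intensity trend with robust prior, a block for low against high title numbers, log2(intensity + 16), each array left out, and the mean of a gene's probe sets. The level of 11 for bright probe sets was chosen after the values were seen.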

Additional observations from a re-analysis of the deposited data

How the results depend on the processing

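No paired analysis was possible because no title number occurs in both genotypes. By limma 0 member probe sets were called, against 1 with the intensity trend and robust prior (Icam4, adjusted p = 0.029) and 2 at an unadjusted p under 0.05. The number was also 0 whichever array was left out. Those fits called only 8 to 23 of all 45037 probe sets, so this 0 says little about the members. The median over the 9 genes ran from -0.14 (without WT 497) to -0.10 (without WT 550) when an array was left out, and from -0.11 to -0.08 under the other settings. Over all probe sets the number called ran from 8 (without KO 548) and 17 (the block) to 1202 (the level filter), 1016 (log2 of intensity + 16), 234 (quantile) and 1592 (the trend), against 160. Signs turned for Bcam (0.042 with quantile and 0.031 with cyclic loess normalization, and -0.15 to 0.10 with an array left out), for Xk 1453866_a_at, which stands for the gene (-0.043 to 0.18 with an array left out, and -0.13 as the mean of both probe sets), and for Cd47 1419554_at (-0.048 to 0.12) and 1430997_at (-0.05 to 0.24) with an array left out. The cause was not tested. The other 10 probe sets kept their sign in each of these settings. Bcam was too dim for the level filter. With 3 arrays per genotype the SEs of the members were 0.09 to 0.18. The differences of Rhag, Rhd and Kel missed the threshold after adjustment both by limma (0.455, 0.582 and 0.51) and with the trend (0.205, 0.195 and 0.131).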
